A study of Drosophila melanogaster with 2 samples.

Results

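The epidermal growth factor (EGF) receptor pathway genes described here were 8 of the 13945 protein-coding genes of Drosophila melanogaster: Egfr, spi, rho, aos, pnt, aop, sty and kek1. They were chosen by name, and each was given every peak summit in its gene body or within 5 kb of it. In the list that passed the authors' irreproducible discovery rate (IDR) threshold, the 8 gene regions held 54 of 7326 summits. All 8 regions held at least 1, which 40.1% of protein-coding genes did. The count ran from 13 at pnt, 12 at aop and 10 at Egfr to 1 each at rho and kek1. Introns held 30 of the 54 summits and promoters 13.

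The study mapped CG6276 by chromatin immunoprecipitation and sequencing in whole prepupae of mixed sex, with an age of 72 days on the labels. The flies were a transgenic line that stably expressed CG6276 with green fluorescent protein (eGFP) at its C-terminus, and an anti-GFP antibody was used. There was 1 group with 2 biological replicates, numbered 2 and 4, each with 30000 listed peaks, beside a pooled list of 30000 peaks. No control library was analysed here, depth is unknown, and with 1 group nothing was tested, so every comparison below is a description. Whole animals were used, so strong binding in few cells and weak binding in many cannot be told apart. Expression was not measured, so tissue markers could not be checked. The signal value of a peak is the authors' score and serves only to rank peaks within 1 list, with rank 1 the strongest.

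The EGF receptor pathway passes signals between neighbouring cells and is used again and again in fly development, in eye, wing, muscle and gut. The ligand Spitz, encoded by spi, is made as a membrane protein, and the protease Rhomboid, encoded by rho, cuts it so that it can be secreted. It binds the receptor tyrosine kinase encoded by Egfr, which acts through Ras and MAP kinase on a pair of ETS-family transcription factors: the activator encoded by pnt and the repressor encoded by aop, also called Yan. Several inhibitors are induced by the pathway itself, among them the secreted protein Argos (aos), the intracellular protein Sprouty (sty) and the transmembrane protein Kekkon-1 (kek1).

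Sequence at the summits is shown for the strongest peak of 4 genes and for 3 further windows of aos and pnt that held TGAATGAA, the site of the repressor Capicua (Cic), which MAP kinase signalling inactivates. The TGAATGAA windows were picked after the matches were seen. Each window reaches 100 bp to each side of the summit and is read 5′ to 3′ on the plus strand from the RefSeq Release 6 (dm6) genome. Capitals mark matches on either strand to any of 4 motifs: CCGGAA (ETS family, including Pnt and Aop), TGAATGAA (Cic), GAGAG (GAGA factor) and CAGTG (a core named in earlier work on these files). Matches may overlap: the repeat TGAATGAATGAA counts as 2 matches to TGAATGAA, and CAGTGAGAG joins 1 match to CAGTG with 1 to GAGAG.
sty intron, strongest, chr3L:3418834-3419034: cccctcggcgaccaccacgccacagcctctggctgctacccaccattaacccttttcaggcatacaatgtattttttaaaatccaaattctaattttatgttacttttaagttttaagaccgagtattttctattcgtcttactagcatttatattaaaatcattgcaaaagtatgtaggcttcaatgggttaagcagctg
spi promoter, strongest, chr2L:19575680-19575880: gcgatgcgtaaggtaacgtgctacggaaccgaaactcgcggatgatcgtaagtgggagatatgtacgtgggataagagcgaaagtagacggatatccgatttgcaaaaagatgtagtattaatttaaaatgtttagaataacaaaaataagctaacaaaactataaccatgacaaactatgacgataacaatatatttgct
pnt intron, strongest, chr3R:23334335-23334535: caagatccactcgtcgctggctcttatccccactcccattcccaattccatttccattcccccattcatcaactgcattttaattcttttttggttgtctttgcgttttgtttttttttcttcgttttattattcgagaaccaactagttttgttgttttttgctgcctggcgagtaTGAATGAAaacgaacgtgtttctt
aos promoter, strongest, chr3L:16483839-16484039: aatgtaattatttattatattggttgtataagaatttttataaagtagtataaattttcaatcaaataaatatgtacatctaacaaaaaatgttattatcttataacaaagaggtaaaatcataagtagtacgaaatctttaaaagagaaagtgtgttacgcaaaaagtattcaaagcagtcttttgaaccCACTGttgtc
aos intron, chr3L:16480438-16480638: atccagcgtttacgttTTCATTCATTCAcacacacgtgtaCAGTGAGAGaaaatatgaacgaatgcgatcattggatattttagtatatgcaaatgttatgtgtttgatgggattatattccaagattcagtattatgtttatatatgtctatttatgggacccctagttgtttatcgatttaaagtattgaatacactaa
aos promoter, second summit, chr3L:16484041-16484241: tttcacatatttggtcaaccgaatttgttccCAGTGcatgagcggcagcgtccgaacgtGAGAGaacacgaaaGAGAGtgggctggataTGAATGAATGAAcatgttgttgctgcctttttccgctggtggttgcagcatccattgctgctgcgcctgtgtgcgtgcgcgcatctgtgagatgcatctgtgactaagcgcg
pnt intron, near the pnt-RB start, chr3R:23345093-23345293: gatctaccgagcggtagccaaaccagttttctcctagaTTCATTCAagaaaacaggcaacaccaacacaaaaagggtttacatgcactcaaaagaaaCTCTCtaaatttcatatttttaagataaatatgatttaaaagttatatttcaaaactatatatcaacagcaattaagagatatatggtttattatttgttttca

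The ETS and Cic motifs each lay in few of these windows. Beside the whole list, the share was higher for TGAATGAA and, with 100 bp to each side, lower for CCGGAA. TGAATGAA lay in 5 of 54 windows (9.26%, 95% Wilson interval 4.02% to 19.9%), against 1.99% of all IDR-thresholded windows and 2.01% of the windows of pooled peaks that overlapped none of them. The share moved with the window: with 50 bp to each side it was 3.70%, against 1.201% of the whole list, and with 200 bp it was 16.7%, against 4.08%. The 5 windows belonged to 2 genes, aos with 2 windows of 2 matches each and pnt with 3 windows of 1 match each, so they are not independent. In the strongest peak of pnt the match lies near the right end of the printed window, away from the summit. The window at the pnt-RB start also held it and overlaps an exon, so it is not printed. CCGGAA lay in 1 window (1.85%, interval 0.328% to 9.77%), that of an aop intron, against 2.77% of all IDR-thresholded windows and 4.08% of the other pooled windows. With 200 bp to each side its share was 7.41%, against 6.24% of the whole list. The windows of sty and spi printed above hold no match to any of the 4 motifs. A match describes these letters only, and its absence says nothing on whether a factor binds there.

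The other 2 motifs were about as common as in the whole list. GAGAG lay in 17 of 54 windows (31.5%, interval 20.7% to 44.7%), in 5 genes, against 28.6% of all IDR-thresholded windows. CAGTG lay in 24 (44.4%, interval 32.0% to 57.6%), in 7 genes, against 42.6%. Among the other pooled windows the shares were 24.9% for GAGAG and 36.2% for CAGTG. The A and T content of the windows had a median of 62.9%, against 64.2% in the windows of all other IDR-thresholded peaks.

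**Figure D1:**
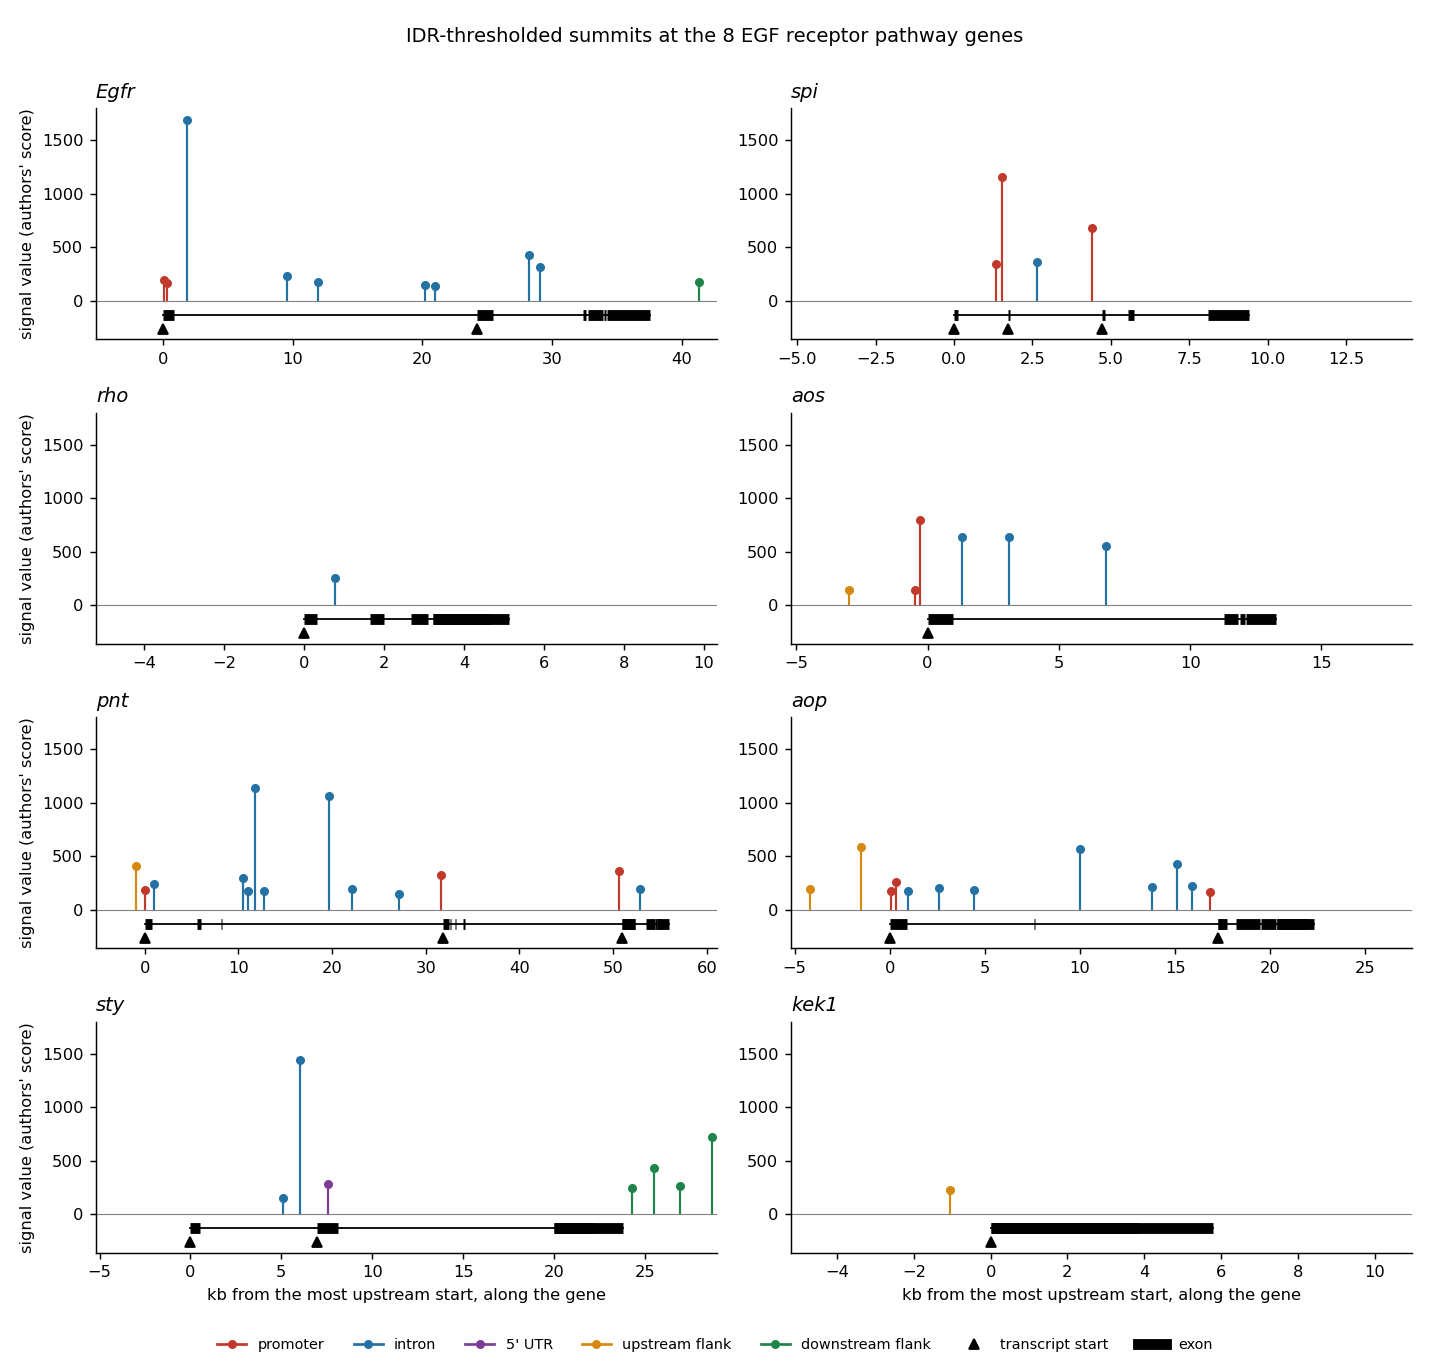
Signal value (authors' score, vertical axis) of each IDR-thresholded summit along each of the 8 genes, in kb from its most upstream transcript start (horizontal axis), coloured by class, with exons as black boxes and transcript starts as triangles below. The strongest summits of Egfr (1689), sty (1441) and pnt (1141) lie in introns and that of spi (1160) at a promoter, while rho and kek1 have 1 summit each.

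The receptor gene had its strongest peak inside its first intron. Egfr (FBgn0003731, chromosome 2R, 21522420 to 21559977, plus strand, dm6) held 10 IDR-thresholded summits: 7 in introns, 2 at a promoter and 1 in the downstream flank. The strongest, at 21524255, lay 1835 bp into the gene from the Egfr-RA start, with a signal value of 1689 and rank 109 of 7326. It had a signal value of 886 and rank 112 in replicate 2, and 813 and rank 114 in replicate 4. Both replicates therefore placed it close to its rank in the IDR-thresholded list. The next strongest, at 21550669, had a signal value of 425 and rank 1778, and ranked 1719 in replicate 2 and 2033 in replicate 4.

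The starts of Egfr differed. The summits 41 and 285 bp from the Egfr-RA start had signal values of 195 and 163, well below the intronic one. The Egfr-RB start, 24223 bp further along, had no IDR-thresholded summit within 500 bp, and the nearest pooled summit there, at -148 bp, had a signal value of 66.0 and rank 15964. The intronic summit at 21531933 was also a promoter summit of the non-coding gene lncRNA:CR44725, 262 bp from its start. That start was the nearest of any gene to the intronic summit at 21534371 as well, at -2176 bp. The intronic summits at 21542599 and 21543391 lay nearest the start of CG30283, at -2026 and -2818 bp. The downstream summit at 21563750 lay in the body of twz and stood at rank 3498 in replicate 2 but 18800 in replicate 4, and the intronic summit at 21543391 at 5177 and 16915. Those 2 summits are the least alike between replicates at this gene.

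The ligand gene had its peaks packed at 2 of its starts. The gene spi (FBgn0005672, chromosome 2L, 19567900 to 19577315, minus strand) held 4 IDR-thresholded summits within 3059 bp, 3 at promoters and 1 in an intron. The strongest, at 19575780, lay at -193 bp from the spi-RG start, with a signal value of 1160 and rank 313. Its signal value was 556 in replicate 2 (rank 397) and 595 in replicate 4 (rank 276). A second summit of the same peak interval, at -401 bp, had a signal value of 343. The summit at -319 bp from the start shared by spi-RB and spi-RE had a signal value of 682 and ranked 886, and 1278 in replicate 2 and 673 in replicate 4. All 4 summits were among the strongest 7326 of both replicates. The most upstream start, that of spi-RA and spi-RF, had no IDR-thresholded or pooled summit within 500 bp, the nearest being 1327 bp inside the gene.

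The gene for the ligand-cleaving protease had 1 moderate peak. The region of rho (FBgn0004635, chromosome 3L, 1463811 to 1468944, plus strand) held 1 IDR-thresholded summit, in an intron 770 bp from the start. Its signal value was 253 at rank 3649, near the middle of the list, and it ranked 4058 in replicate 2 (signal value 125) and 3316 in replicate 4 (138). The summit also lies in the body of Ptp61F, so the peak cannot be given to rho alone. At the rho start itself the pooled list had a summit at -188 bp, of signal value 86.3 and rank 12141, which did not pass the threshold.

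The ETS-factor genes carried the most summits. The region of pnt (FBgn0003118, chromosome 3R, 23290231 to 23346167, minus strand) held 13, with 9 in introns, 3 at promoters and 1 in the upstream flank. Each of its 3 starts had a promoter summit, of signal values 187 (pnt-RB), 329.8 (pnt-RD) and 366 (pnt-RC and pnt-RE). The strongest summits were intronic. That at 23334435, 11732 bp from the pnt-RB start, had a signal value of 1141 and rank 321, with 432 and rank 663 in replicate 2 and 745 and rank 144 in replicate 4. That at 23326499 had a signal value of 1062 and rank 388, with 388 and rank 789 in replicate 2 and 673 and rank 197 in replicate 4. Both thus stood higher in replicate 4 than in replicate 2.

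Around the strongest pnt summit, 4 summits fell within 2304 bp, and 3 more fell within 1855 bp at the pnt-RB start. One of the group of 4, at 23333394, was also a promoter summit of the non-coding gene lncRNA:CR46090, 409 bp from its start. That start was also the nearest of any gene to the strongest pnt summit, at -632 bp. The summits at 23335085 and 23335698 lay nearest it too, at -1282 and -1895 bp, as did that at 23326499, at 7304 bp. Position alone does not assign these summits to pnt. The intronic summit at 23319063 was the pnt summit with the widest gap between replicates, at rank 15932 in replicate 2 and 4532 in replicate 4. The promoter summit at 23295523, in a peak only 129 bp wide, had no replicate peak that shared 50% of both lengths, although peaks ranked 2415 in replicate 2 and 2005 in replicate 4 overlapped it.

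The repressor gene aop had many summits of modest strength. Its region (FBgn0000097, chromosome 2L, 2156484 to 2178754, minus strand) held 12 IDR-thresholded summits, or 3.72 per 10 kb, the highest density among the 8 genes: 7 in introns, 3 at promoters and 2 in the upstream flank. The strongest, at 2180279, lay at -1525 bp from the start shared by aop-RB, aop-RC and aop-RE, with a signal value of 583 and rank 1142. It ranked 1561 in replicate 2 (signal value 253) and 917 in replicate 4 (326). Second was an intronic summit at 2168743, the one whose window held CCGGAA, with a signal value of 565 and rank 1200. It ranked 2846 in replicate 2 and 641 in replicate 4, where it was the strongest peak of the gene. The choice of the strongest aop peak thus depended on the replicate. Both starts had promoter summits, with signal values of 257 and 177 at the upstream start and 165 at the other, and 6 summits fell within 5957 bp around the upstream start. The outer summit of the upstream flank, at 2182928, lay in the body of the non-coding gene lncRNA:CR43751, 966 bp from its start. Position alone does not assign that summit to aop.

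Of the feedback inhibitors, aos had a strong promoter and intron peak group. Its region (FBgn0004569, chromosome 3L, 16470386 to 16483650, minus strand) held 6 IDR-thresholded summits: 3 in introns, 2 at the promoter and 1 upstream. The summit at 16483939, -289 bp from the only start, had a signal value of 800.0 and rank 669, with 401 and rank 746 in replicate 2 and 393 and rank 656 in replicate 4. The intronic summits at 16482344, 16480538 and 16476850 had signal values of 637, 636 and 555. The first of these was the strongest aos peak of replicate 2, at rank 649, but ranked 2132 in replicate 4. The 6 summits also lie in the body of CG33158, so position alone does not assign them to aos.

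The windows of aos with TGAATGAA, printed above, were at an intronic and a promoter summit of unlike strength. The intronic one, at 16480538, ranked 998, and 1299 in replicate 2 and 859 in replicate 4. The promoter one, at 16484141, had a signal value of 141 and rank 7256, close to the end of the list, and ranked 7682 in replicate 2 and 2532 in replicate 4.

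The gene sty had a strong peak in an intron and a second group of peaks beyond its 3′ end. Its region (FBgn0014388, chromosome 3L, 3401153 to 3424935, minus strand) held 7 IDR-thresholded summits: 4 in the downstream flank, 2 in introns and 1 in the 5′ UTR. The strongest, at 3418934, was intronic and lay at -973 bp from the sty-RB start, with a signal value of 1441 and rank 172. Its signal value was 766 in replicate 2 (rank 166) and 675 in replicate 4 (rank 195), so it was placed alike by both. The 4 downstream summits spanned 4404 bp and had signal values from 247 to 721. The strongest of them, at 3396253, ranked 803, with 1931 in replicate 2 and 390 in replicate 4. For all 4 the nearest start of any gene was that of the non-coding gene lncRNA:CR45737, 2165 to 6569 bp away. The nearest start of sty lay 17304 to 21708 bp away, so position alone does not assign them to sty. Neither start of sty had an IDR-thresholded summit within 500 bp, and the nearest lay 589 bp inside from the sty-RB start (signal value 282). A pooled summit 386 bp inside from the sty-RB start, of signal value 125 and rank 8254, did not pass the threshold.

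The gene kek1 (FBgn0015399, chromosome 2L, 12817000 to 12822787, minus strand) had 1 IDR-thresholded summit, at -1059 bp from the start shared by kek1-RB and kek1-RC. Its signal value was 229.5 at rank 4117, with 114 and rank 4576 in replicate 2 and 118 and rank 4065 in replicate 4. At the start itself a pooled summit at -35 bp, of signal value 83.0 and rank 12690, did not pass the threshold. Together with rho, kek1 had the shortest regions of the 8 genes, at 15134 bp for rho and 15788 bp for kek1 with flanks.

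The 5 kb limit of a region cut through groups of summits at some of the genes. Just inside it, 4900 bp downstream of sty, was the summit of rank 803, and just outside, at 6135 bp, one of signal value 558 and rank 1223. At aop the outermost summit inside lay 4174 bp upstream (signal value 193) and the next one outside 5554 bp upstream (191). At aos they lay 2984 bp (140) and 5450 bp (206) upstream. A summit of signal value 518 and rank 1367 lay 9190 bp downstream of pnt and was not counted.

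**Figure D2:**
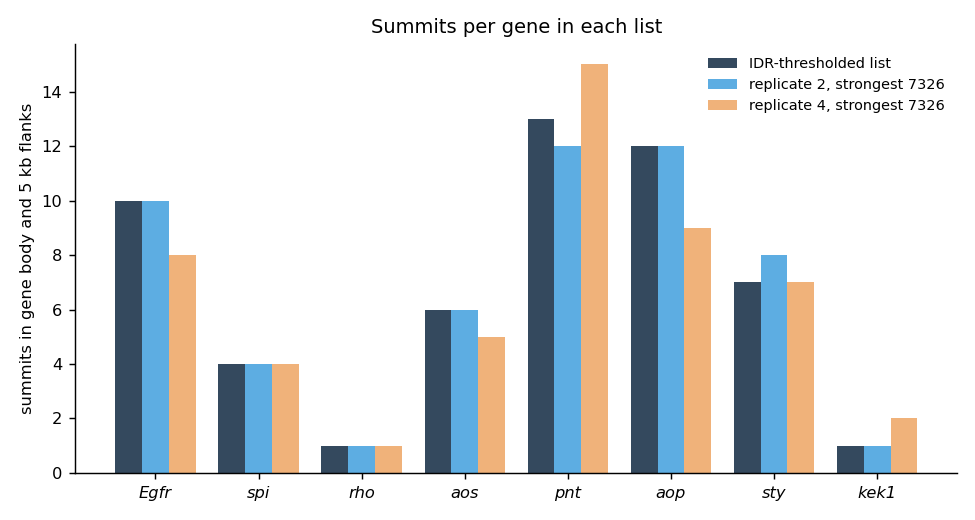
Number of summits in the gene body and 5 kb flanks (vertical axis) for each of the 8 genes, in the IDR-thresholded list and in the strongest 7326 peaks of replicates 2 and 4. The totals are 54, 54 and 51, and the largest gaps between the replicates are 3 summits, at pnt (12 and 15) and aop (12 and 9).

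Counts per gene were much alike in the replicates. Among the strongest 7326 peaks, replicate 2 had 54 summits in the 8 regions and replicate 4 had 51. Egfr had 10 in replicate 2 and 8 in replicate 4, pnt 12 and 15, and aop 12 and 9. The other genes had close counts in replicates 2 and 4: spi had 4 and 4, aos 6 and 5, sty 8 and 7, rho 1 and 1, and kek1 1 and 2. In the whole replicate lists the 8 regions held 144 summits in replicate 2 and 160 in replicate 4, and the pooled list had 161.

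Reproducibility of single peaks was described by overlap of at least 50% of both lengths. A replicate peak could match more than 1 summit: that of rank 5261 in replicate 4 matched both promoter summits at the Egfr-RA start. Of the 54 summits, 32 (59.3%, 95% Wilson interval 46.0% to 71.3%) had a peak among the strongest 7326 of both replicates, against 52.4% of all other IDR-thresholded peaks and 52.5% of the whole list. In the whole replicate lists 45 of 54 were matched in both (83.3%), against 75.2% of the others. All 54 overlapped a peak of each replicate by at least 1 bp, against 96.0% of the others. The list was made from these replicates, so these shares do not measure reproducibility independently. Of the 45 summits matched in both, 18 ranked higher in replicate 2 and 27 in replicate 4, and 3 differed by more than 10000 ranks, the 2 Egfr summits and the pnt summit given above.

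**Figure D3:**
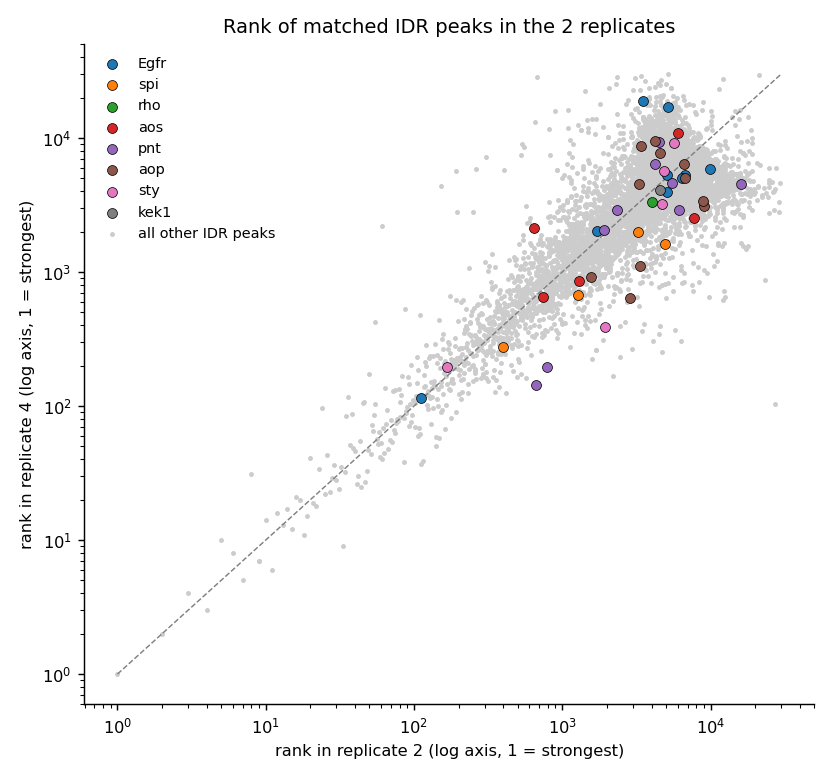
Rank in replicate 4 (vertical log axis) against rank in replicate 2 (horizontal log axis) of every IDR-thresholded peak that had a match in each replicate list, with the 45 matched summits of the 8 genes in colour and all other matched peaks in grey; the dashed line marks equal ranks. The strongest peaks of Egfr (112 and 114) and sty (166 and 195) lie near the line, and those of pnt (663 and 144) below it.

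The IDR-thresholded list held exactly the 7326 pooled peaks with the highest signal values, down to 139.4, so a summit outside it is one of lower pooled signal. Of the 161 pooled summits in the 8 regions, 46.6% (interval 39.0% to 54.3%) lay in a peak that overlapped an IDR-thresholded one, against 30.5% of all pooled peaks. Counting only those at the same position, the share was 33.5%, against 24.4%.

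Within the IDR-thresholded list, peaks of the 8 genes were about as strong as the others. Their median signal value was 249.97, against 251.5 for all other IDR-thresholded peaks, and their median rank was 3695, against 3663.5. Only peaks of signal value 139.4 or more enter these medians. Of the pooled summits in the 8 regions, 33.5% were in that list at the same position, against 24.4% of all pooled peaks. Of the 54, 6 (11.1%) were among the strongest 732, against 9.98% of the others. These 6 were the strongest summits of Egfr, spi, sty and aos and the 2 intronic ones of pnt. The density was 2.13 summits per 10 kb in the 8 regions, against 0.610 in the joined regions of all protein-coding genes. Within the 8 genes it ran from 3.72 at aop and 2.58 at aos to 0.661 at rho and 0.633 at kek1. The densities of rho and kek1 were thus near the 0.610 of all protein-coding genes.

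Genes with long regions held summits more often, with any summit at 69.1% of those at least 20 kb long, so the counts are given beside length. At least as many IDR-thresholded summits as at pnt were found at 0.466% of protein-coding genes, as at aop at 0.538% and as at Egfr at 0.839%. The shares were 2.04% for sty, 3.13% for aos and 7.44% for spi. For rho and kek1, with 1 summit each, the share was 40.1%, that of genes with any summit. Among the 1977 genes with such long regions, as 5 of the 8 had, those shares were 3.29%, 3.79% and 5.92%. The other long ones were sty, with 13.2%, and aos, with 17.9%.

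**Figure D4:**
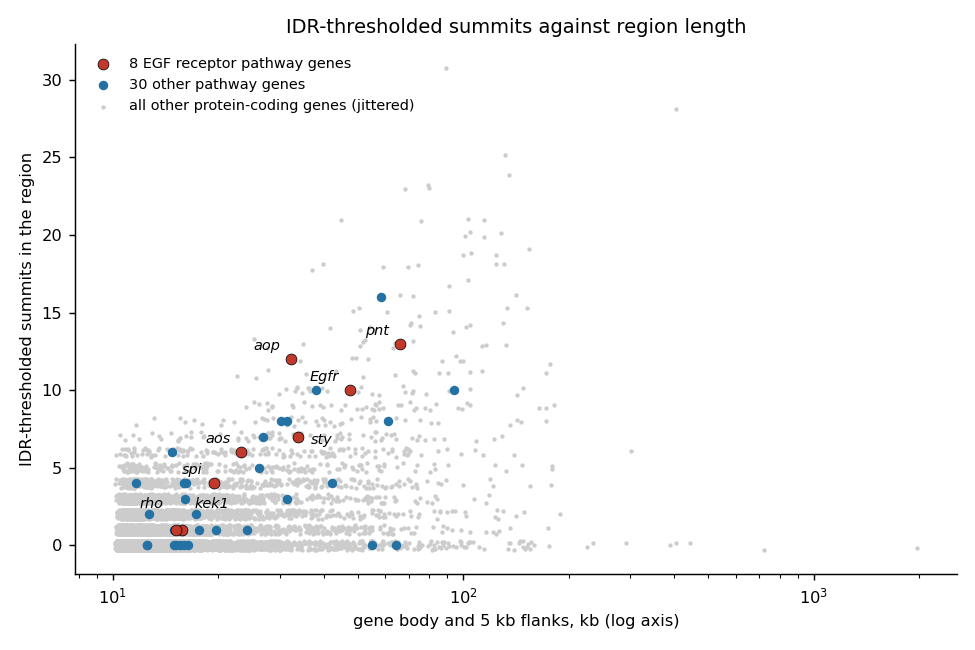
Number of IDR-thresholded summits (vertical axis) against region length in kb (horizontal log axis) for the 8 EGF receptor pathway genes, the 30 other pathway genes and all other protein-coding genes, the last with small random vertical shifts so that points can be seen. Egfr, pnt and aop have 10, 13 and 12 summits, and rho and kek1 have 1 each. Of genes with regions at least 20 kb long, 5.92%, 3.29% and 3.79% have at least as many as Egfr, pnt and aop. No share at matched length was computed.

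By position, 5 of the 8 genes (Egfr, spi, aos, pnt and aop) had a promoter summit, against 13.2% of protein-coding genes, and 7 had an intronic one, against 9.77%. Among genes with long regions, 4 of 5 had a promoter summit, against 36.4%, all 5 an intronic one, against 50%, and all 5 any summit, against 69.1%. In the strongest 7326 peaks of either replicate 6 of the 8 genes had a promoter summit, against 15.5% of protein-coding genes in replicate 2 and 12.9% in replicate 4. The 8 genes had 15 distinct starts, of which 9 had an IDR-thresholded summit within 500 bp, against 13.1% of the 19607 starts of protein-coding genes. Of the 13 promoter summits 8 lay upstream of the nearest start of their gene, and this share too was not computed for the whole list. Outside promoters, no summit lay in a coding exon, a share that was not computed for the whole list.

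Taking starts and introns of any gene, 15 of the 54 summits (27.8%) were promoter summits, against 33.0% of the whole list, and 30 (55.6%) were intronic, against 49.1%. Exons of any gene, outside promoters, held 2 (3.70%), against 2.83% of the whole list. The median summit of the 8 genes lay 2052 bp from the nearest start of its own gene, and 27 of 54 lay over 2000 bp away. These distances were not computed for the whole list, so they are no trait of these genes. The farthest was the downstream sty summit at 3396253, 21708 bp from the sty-RB start.

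The rest of the pathway was described with 30 further genes, all matched in the annotation. They held 108 IDR-thresholded summits with a median of 2.5 per gene, against 6.5 for the 8 genes and 0 for all protein-coding genes. Any summit was found at 21 of 30, against 40.1% of protein-coding genes, a promoter summit at 9, against 13.2%, and an intronic one at 13, against 9.77%. Of the 30, 13 had regions at least 20 kb long. Of these 13, 5 had a promoter summit, against 36.4% of genes with such regions, and 10 an intronic one, against 50%. By role, promoter summits were found at 2 of 3 ligand genes, 0 of 4 ligand-processing genes, 3 of 11 adaptors and transducers, 2 of 7 inhibitors and 2 of 5 transcriptional regulators.

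Among the ligand genes, vn, which encodes a neuregulin-like ligand, had a promoter summit of signal value 555 and rank 1232. Krn, which encodes a ligand related to Spitz, had 2 promoter summits. The stronger had a signal value of 172 and was also a promoter summit of CG7484 and Ndfip. It ranked 3891 in replicate 2 but 12750 in replicate 4. The rhomboid-family gene ru had 7 summits and S, encoding the Spitz chaperone Star, had 10, none of them at a promoter.

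Inside the cell, the stronger of 2 promoter summits of csw, which encodes the SHP2-type phosphatase Corkscrew, had a signal value of 838 and rank 609, and that of the adaptor gene Shc, shared with Atat, 787 and rank 698. The adaptor gene dos had one of signal value 336. Raf, the gene of the MAP kinase kinase kinase, had 16 summits, the most of the 38 genes, with 13 in introns and none at a promoter, and the strongest had a signal value of 1801 and rank 89. No IDR-thresholded summit lay at Sos, Ras85D, ksr or rl, which encode the Ras exchange factor, Ras itself, a scaffold and the MAP kinase.

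Of the inhibitor genes, Mkp3, encoding a MAP kinase phosphatase, had 3 promoter summits, the strongest of signal value 930.4 and rank 494, and RasGAP1, encoding a GTPase-activating protein for Ras, one of 575 and rank 1164. Of the transcriptional regulators, edl, whose protein binds and antagonises ETS factors, had 2 promoter summits, the stronger of signal value 182, and ttk, which encodes a repressor of neural fates, one of 173. That of edl ranked 4406 in replicate 2 and had no matched peak in replicate 4, and that of ttk ranked 5408 and 10797. The promoter summits given for vn, csw, Shc, dos, Mkp3 and RasGAP1 were matched among the strongest 7326 of both replicates. At csw, dos and Mkp3 these were the strongest summits of the gene. The strongest summits of edl, vn and RasGAP1 were intronic, with signal values of 1372 (rank 193), 1019 and 590. Those of Shc, Krn and ttk lay in the upstream flank, with 1512 (rank 152), 719 and 362. The gene of the repressor Cic had 8 summits, 7 of them intronic. The remaining genes with no IDR-thresholded summit were the ligand gene grk, the rhomboid-family gene rho-4, the phosphatase gene PTP-ER, kek2, a relative of kek1, and phyl, whose product helps to degrade Ttk.

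**Figure D5:**
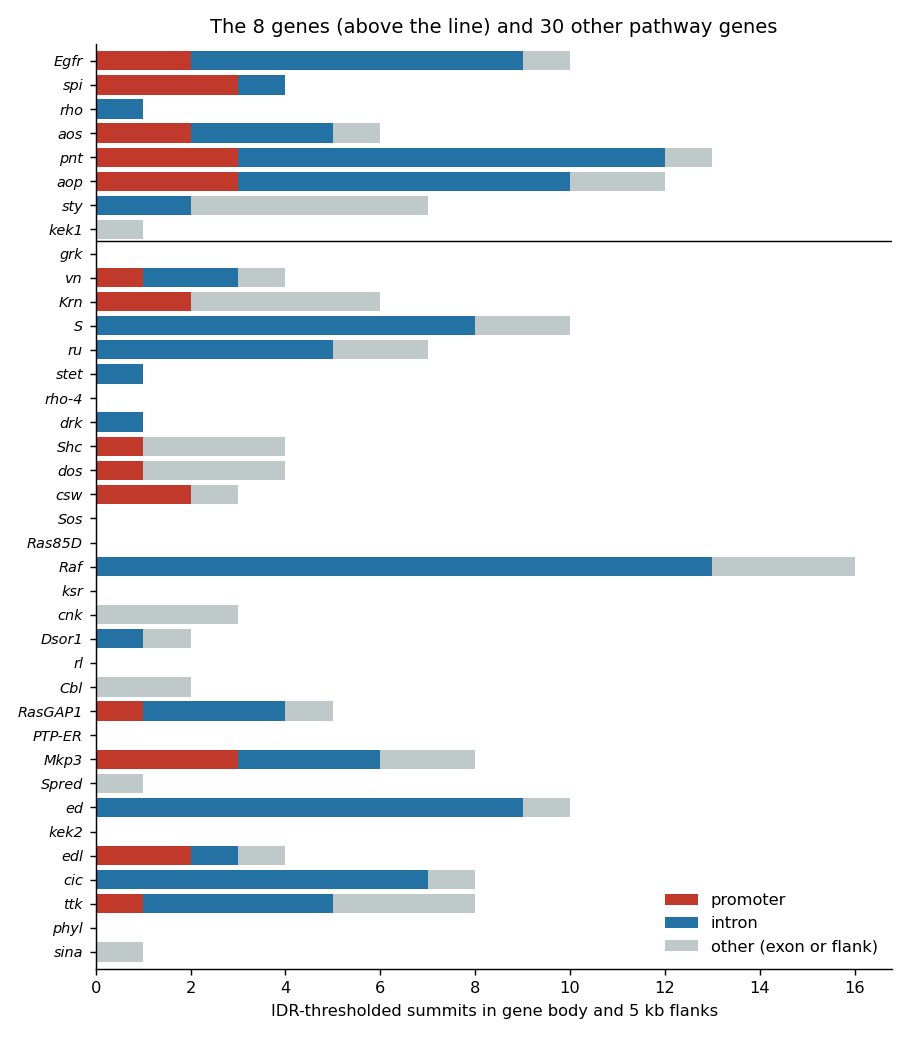
Number of IDR-thresholded summits (horizontal axis) in the gene body and 5 kb flanks of the 8 genes (above the line) and of the 30 other pathway genes (below it), split into promoter, intron and other positions. Raf has 16 and pnt 13, and 9 of the 30 other genes have none.

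For each of the 8 genes, the protein-coding gene with the most similar pattern was found among the 5593 with an IDR-thresholded summit. Likeness was the distance over 4 measures: promoter, intronic and other summit counts (log2 of 1 plus the count) and the log2 strongest signal value. These were msi for Egfr (distance 0.217), Gdap2 for spi (0.167), CG10348 for rho (0.000475), CG13917 for aos (0.0531), Fhos for pnt (0.516), klar for aop (0.403), LIMK1 for sty (0.00927) and CSN6 for kek1 (0.00108). The distance was smallest for rho, with 1 summit, and largest for pnt, with 13. Low counts are easily equalled, so the distances do not compare likeness between the genes. Egfr and msi differed by 1 intronic summit (7 and 6), with strongest signal values of 1689 and 1576.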

How the data were processed

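Peak lists of 2 replicates, a pooled list and an IDR-thresholded list were used as the authors deposited them on dm6, and the dm3 lists were not used. Per the deposited documentation, each replicate list came from that library's alignment and 1 further undescribed file, the pooled list from both, and the thresholded list from the other 3. Neither aligner, caller, IDR threshold nor depth is given in the sources used here. The signal value is a score the authors deposited per peak, and the summit is their other deposited value, an offset added to the peak start.

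Genes were taken from the annotation of Ensembl, release 115 (BDGP6.54), with Gap1 matched through its synonym RasGAP1. A promoter summit lay within 500 bp of a start of the gene. Regions were gene bodies with 5 kb flanks. Peaks were matched at 50% of both lengths. Motifs were searched on both strands in windows of 100 bp to each side of the summit. Wilson 95% intervals cover the counting of summits only. Nothing shows the replicates to be separate cultures beyond their label as biological replicates.

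Named genes were the 8 genes, other pathway genes with a promoter summit, genes whose promoter a summit shared, and the most similar gene of each. Raf, S, ru, cic and the genes with no summit were named after their counts were seen. The gene lncRNA:CR45737 was named because its start lay nearest the downstream sty summits, and lncRNA:CR43751 and CG30283 because theirs lay nearest summits of aop and Egfr. The 8 genes and all lists were chosen with earlier results of these data known. Python 3.11.15, pandas 2.3.3, numpy 2.4.6, scipy 1.17.1 and matplotlib 3.10.9 were used, and the counting functions were tested on made-up data.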

Additional observations from a re-analysis of the deposited data

How the results depend on the processing

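For 12 results, 53 alternatives were computed, of which 13 moved by more than 1.5 times (counts) or outside the 95% interval (shares). The other 40 did not, but 3 of them, on rare motifs, still differed by over 1.5 times: wider windows of 200 bp on each side held TGAATGAA in 16.7% and CCGGAA in 7.41%, and the stronger 50% of peaks held CCGGAA in 3.70%. Halving the list to its stronger peaks left 27 summits at the 8 genes and put 24.2% of pooled summits in IDR-thresholded peaks; matching by equal position gave 33.5%. The share of summits matched in both replicates was 74.1% with 1 bp of overlap, 27.8% with 80% of both lengths, 83.3% in the whole replicate lists and 31.5% in their strongest N/2 peaks, N being 7326. Narrower windows of 50 bp on each side held CAGTG in 14.8%, GAGAG in 18.5% and TGAATGAA in 3.70%, and the wider ones held CAGTG in 61.1% and GAGAG in 57.4%; in the whole list the narrower shares were 17.7%, 13.8% and 1.201%, and the wider ones 66.9% and 50.9%. With promoters of 1000 bp, 16 other pathway genes had a promoter summit, and the share of all protein-coding genes at that window was not computed. Each of these settings counts fewer or more bases, peaks or matches, and why the values moved was not tested.

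Leaving out either replicate gave 51 to 54 summits at the 8 genes, 6 genes with a promoter summit, 7 with an intronic one, 8 to 11 other pathway genes with a promoter summit and 21 with any. Flanks of 0 kb and 10 kb gave 42 and 68 summits. Counting each interval once, chosen after seeing the data, gave 53. No paired analysis was possible because there was only 1 group. Depth is unknown and no control library was analysed, so local background could not be weighed.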
